A study of Mus musculus with 10 samples.

Results

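The genes described here are 10 transcription factors of the hair matrix and precortex, taken by symbol from the deposited table of 24331 genes: Lef1, Msx1, Msx2, Dlx3, Foxn1, Gata3, Trps1, Ovol1, Prdm1 and Cux1. All 10 were present, and all 10 passed the filter on low values that left 13625 genes for testing. The tissue was whole back skin of wild-type male C57BL/6 mice, 7 to 8 weeks old, all of them waxed to start hair growth. Cyclophosphamide, a prodrug whose products alkylate DNA, was given on day 9 after waxing as an intraperitoneal dose of 150 mg/kg. The groups are skin from before the injection, without the drug (0h), and skin taken after it, at 6h, 12h, 24h or 48h; each time has 2 libraries, which makes 10. No vehicle-injected mice are among the samples used here, so time since the drug and time since waxing cannot be told apart. The time of day of sampling is not given. The labels do not say whether the 2 libraries of a time are from separate mice, so a p-value here speaks only of library-to-library spread, which could be technical.

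In a growing follicle, dividing matrix cells surround the dermal papilla in the bulb and move upward to become the precortex, the hair shaft and the inner root sheath. Wnt signals act there through beta-catenin, which binds DNA by way of Lef1 and related TCF proteins. Lef1 and the homeobox, forkhead and zinc finger factors described here act along that path: Foxn1, the gene mutated in nude mice, is needed for hair keratin production, Gata3 and Cux1 for the inner root sheath, and Msx2 and Dlx3 for shaft formation. Several of these factors are also made elsewhere in skin, for example Ovol1, Dlx3, Gata3 and Prdm1 in the differentiating epidermis. In whole skin, fewer cells of a type and less RNA per cell cannot be told apart.

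Msx1 had the lowest log2 fold change of the 10 at 48h, and Foxn1, like Dlx3, Ovol1, Prdm1 and Cux1, had its highest mean at 12h. The mean courses of Msx1 and Foxn1 looked different but were not tested against each other. The regions just before their start sites are shown, and a link of sequence to course was not tested. Both are the 250 bases before the RefSeq start site (GRCm38.p6), written 5′ to 3′ on the strand of the gene and lying outside the annotated transcripts of these genes. Capitals mark CCAAT, its reverse complement ATTGG, and the homeodomain core TAATTA.
Msx1 (chr5:37824586-37824835, minus strand): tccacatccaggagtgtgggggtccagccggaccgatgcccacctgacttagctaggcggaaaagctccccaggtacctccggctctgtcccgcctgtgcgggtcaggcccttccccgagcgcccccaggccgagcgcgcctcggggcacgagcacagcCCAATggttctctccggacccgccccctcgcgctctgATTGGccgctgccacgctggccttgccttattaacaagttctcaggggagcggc
Foxn1 (chr11:78386609-78386858, minus strand): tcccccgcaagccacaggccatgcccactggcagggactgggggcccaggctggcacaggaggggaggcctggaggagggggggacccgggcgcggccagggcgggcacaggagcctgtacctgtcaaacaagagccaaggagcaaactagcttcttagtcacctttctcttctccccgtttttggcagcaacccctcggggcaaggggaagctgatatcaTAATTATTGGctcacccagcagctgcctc

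In the Msx1 window, CCAAT starts 91 bases and ATTGG 54 bases before the start site. In the Foxn1 window, TAATTA starts 29 bases before it and overlaps an ATTGG that starts 24 bases before it. RefSeq windows were matched for 7 of the 10 factors, 10 windows in all, since Lef1 has 4. All motifs were searched on both strands. CCAAT was present in 4 of these 10 windows (Msx1, Msx2, Foxn1 and Prdm1) and in 33.8% of all 32851 windows of this length. The homeodomain core, searched as TAATTA or the same letters ending in G, was present in 2 of the 10 (Foxn1 and Msx2) and in 11.3% of all windows. The TCF and LEF core, searched as CTTTGAT or with AA, TT or TA in place of its last letters AT, was present in 1 of the 10, a window of Lef1, and in 14.8% of all windows. These are matches of letters and not binding sites.

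Summed FPKM (a fragment count corrected for transcript length and library size, which allows levels of different genes to be set side by side) was between 863187 and 979067. Absolute depth cannot be read from FPKM; relative depth, read from the steps between low values, was between 1 and 1.46. Correlations of log2(FPKM + 1) were 0.984 to 0.989 within a time and 0.966 to 0.987 between times. Each fold change below was taken as a difference of log2(FPKM + 1) with limma, fitted on all 10 libraries, and has its standard error (SE) and a p-value adjusted over all 13625 genes (Benjamini-Hochberg, two-sided, threshold 0.05).

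Before the injection the 10 factors spanned a wide range of FPKM. Dlx3 was the most abundant with 108 ± 1.36 FPKM (SD, n = 2), followed by Msx2 with 78.7 ± 6.54, Ovol1 with 70.7 ± 1.04, Gata3 with 47.2 ± 0.970 and Cux1 with 40.4 ± 0.1001. Lef1 averaged 22.9 ± 0.900 FPKM, Msx1 20.4 ± 3.04, Foxn1 18.5 ± 0.660, Prdm1 10.8 ± 1.56 and Trps1 5.52 ± 0.808. Neighbours in this order did not overlap between their libraries except for Lef1 with Msx1 and Msx1 with Foxn1. At 48h Dlx3 was still first and Trps1 last, but Lef1 and Msx1 stood eighth and ninth, below Foxn1 and Prdm1.

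At 48h most of the group was lower than before the injection. Against 0h, 8 of the 10 factors fell and 0 rose, where 4.12% of all tested genes were lower, 4.8% were higher and 8.92% changed in either direction. Over all genes that is 561 lower and 654 higher; with hair genes left out it was 323 lower and 770 higher. The 8 were Msx1, Lef1, Trps1, Msx2, Dlx3, Cux1, Foxn1 and Ovol1, in order of log2 fold change. In 9 of the 10, all but Prdm1, both 48h libraries lay below both 0h libraries, which was so for 28% of tested genes. The median log2 fold change of the 10 was -0.82, beside -0.01 for all tested genes. Without 0h library 2, 0h library 3 or 48h library 3, the number past the threshold was 3, namely Lef1, Dlx3 and Trps1 each time. With hair keratin and keratin-associated protein genes taken out before rescaling it was 5.

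**Figure D1:**
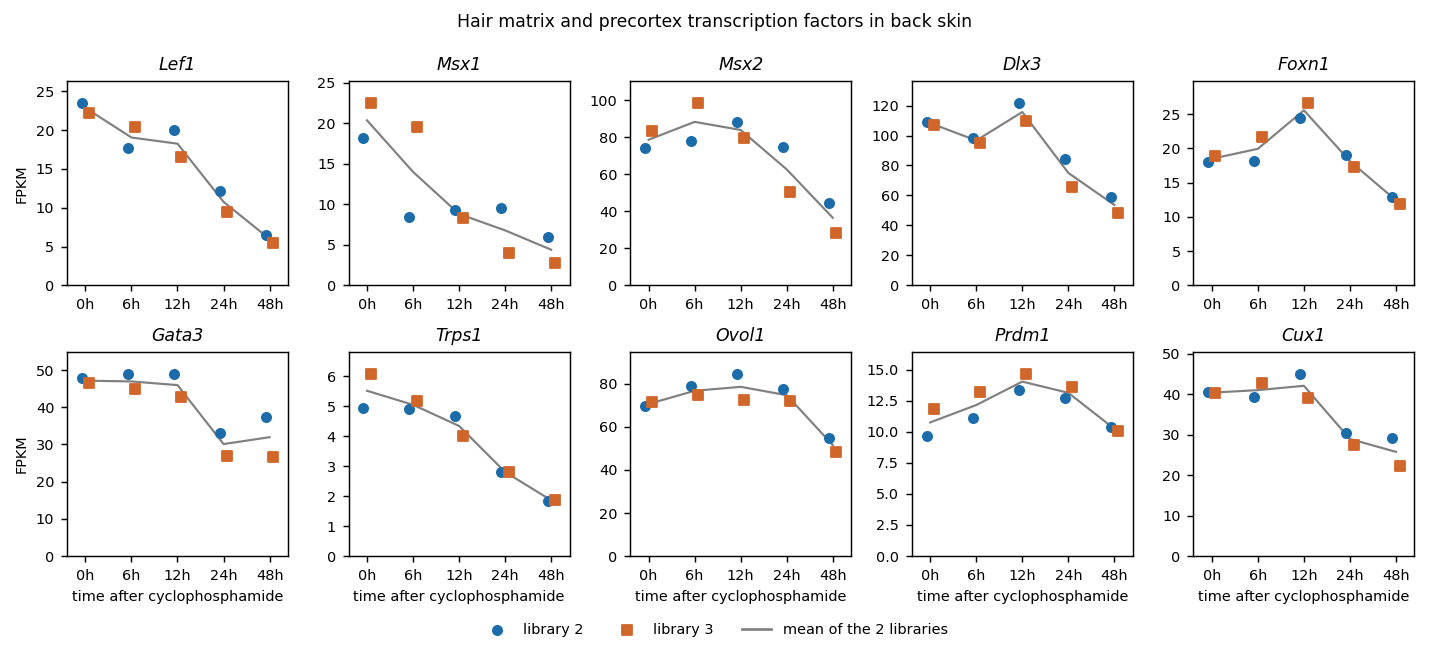
FPKM of each of the 10 factors at 5 times after cyclophosphamide; circles and squares are library 2 and library 3, the grey line joins the means of the 2 libraries, and each axis starts at 0. All factors but Gata3 have their lowest mean at 48h, and Dlx3, Foxn1, Ovol1, Prdm1 and Cux1 have their highest mean at 12h. The 2 libraries of Msx1 lie far apart at 6h, 24h and 48h.

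Lef1 (chr3:131110471-131224356, plus strand; gene positions are those of GENCODE M21 on GRCm38), the DNA-binding partner of beta-catenin, had 23.5 and 22.2 FPKM at 0h, 17.7 and 20.4 at 6h, 20.0 and 16.5 at 12h, 12.1 and 9.40 at 24h, and 6.47 and 5.48 at 48h. Every library taken after the injection lay below both 0h libraries, and the 2 libraries of 48h were the lowest of all. The mean at 48h was 26.1% of that at 0h, with a log2 fold change of -1.78 (SE 0.16, adjusted p = 0.000323). Lef1 was already past the threshold at 24h against 0h, with a log2 fold change of -1.03 (SE 0.16, adjusted p = 0.0115). It fell further at 48h against 24h, with a log2 fold change of -0.75 (SE 0.16, adjusted p = 0.0422), as the only factor of the group past the threshold in that step, where 2.26% of tested genes passed. That step lost its call without 0h library 2, 0h library 3, 24h library 2, 48h library 2 or 48h library 3. An antisense transcript, Gm43352, shares 13.7% of the exon bases of Lef1 in GENCODE M21; it is not among the table's symbols, and the strand setting of the authors' counting is not given in the sources used here.

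Msx1 and Msx2 are related homeobox repressors of the hair bulb. Msx1 (chr5:37820485-37824583, minus strand) had 18.2 and 22.5 FPKM at 0h, 8.42 and 19.6 at 6h, 9.34 and 8.29 at 12h, 9.53 and 4.04 at 24h, and 5.99 and 2.81 at 48h. All libraries from 12h on lay below both 0h libraries, while 1 of the 6h libraries lay between them. Its 48h mean was 21.6% of the 0h mean (log2 fold change -2.04, SE 0.42, adjusted p = 0.0165), and only 0.257% of tested genes had a lower fold change. The spread of Msx1 between libraries of a time was larger than that of 98.4% of tested genes, and its log2 fold changes of -1.12 at 12h (adjusted p = 0.235) and -1.55 at 24h (adjusted p = 0.0789) did not pass.

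Msx2 (chr13:53466884-53473074, minus strand) had 74.1 and 83.4 FPKM at 0h, 78.2 and 98.7 at 6h, 88.6 and 79.5 at 12h, 75.0 and 50.4 at 24h, and 44.6 and 28.5 at 48h. Its libraries overlapped those of 0h at every time up to 24h and lay below them at 48h. The 48h log2 fold change was -1.12 (SE 0.23, adjusted p = 0.0169), and 31.2% of it was reached at 24h, beside 75.7% for Msx1. Neither Msx gene passed at 48h without 0h library 2, 0h library 3 or 48h library 3.

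Dlx3 (chr11:95120119-95125296, plus strand), a distal-less homeobox factor of the shaft and the inner root sheath, had 109 and 107 FPKM at 0h, 98.5 and 94.8 at 6h, 122 and 110 at 12h, 84.6 and 65.5 at 24h, and 58.9 and 48.4 at 48h. The 4 libraries of 24h and 48h were the lowest. The 48h log2 fold change was -1.01 (SE 0.15, adjusted p = 0.0035), and that at 24h was -0.54 (SE 0.15, adjusted p = 0.0791). Of its relatives, Dlx2 fell at 48h (log2 fold change -0.93, adjusted p = 0.0471), whereas Dlx4 (-0.77, adjusted p = 0.116), Dlx5 (-0.50, adjusted p = 0.115) and Dlx1 (-0.10, adjusted p = 0.851) did not pass.

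Foxn1 (chr11:78357577-78386558, minus strand) had 18.01 and 18.9 FPKM at 0h, 18.1 and 21.7 at 6h, 24.5 and 26.6 at 12h, 19.1 and 17.2 at 24h, and 13.0 and 11.9 at 48h. Its 12h libraries lay above both 0h libraries and its 48h libraries below them. The 12h log2 fold change of 0.45 (SE 0.13, adjusted p = 0.131) did not pass, and that at 24h was -0.03 (SE 0.13, adjusted p = 0.924). At 48h Foxn1 was past the threshold (-0.54, SE 0.13, adjusted p = 0.0293), with 5.02% of that change reached at 24h. In 4 of the 10 fits that left out a library it was not.

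Cux1 (chr5:136248135-136567490, minus strand), a CUT-domain homeobox factor, and Gata3 (chr2:9857078-9890034, minus strand), a zinc finger factor that binds GATA sites, are both tied to the inner root sheath. Cux1 had 40.4 and 40.3 FPKM at 0h, 39.2 and 42.8 at 6h, 45.1 and 39.1 at 12h, 30.3 and 27.5 at 24h, and 29.2 and 22.3 at 48h. Gata3 had 47.8 and 46.5 FPKM at 0h, 49.0 and 44.9 at 6h, 49.0 and 42.9 at 12h, 33.2 and 27.0 at 24h, and 37.3 and 26.6 at 48h. For both, all libraries of 24h and 48h lay below all earlier ones. Cux1 fell at 48h on the same scale (-0.64, SE 0.14, adjusted p = 0.0239) and did not pass at 24h (-0.47, SE 0.14, adjusted p = 0.11). Gata3 passed neither at 48h (-0.57, SE 0.17, adjusted p = 0.0647) nor at 24h (-0.64, SE 0.17, adjusted p = 0.0704). Over the fits that left out a library, its 48h log2 fold change was between -0.80 and -0.33. Among the 10, Gata3 alone had its lowest mean at 24h. Its 24h and 48h libraries overlapped, with a log2 fold change of 0.07 at 48h against 24h (SE 0.17, adjusted p = 0.861). The ratio of Gata3 to Cux1 within a library stayed between 0.982 and 1.28 in all 10 libraries.

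Trps1 (chr15:50654752-50890463, minus strand), a zinc finger repressor of the GATA type and the least abundant of the group, had 4.94 and 6.09 FPKM at 0h, 4.91 and 5.19 at 6h, 4.67 and 4.01 at 12h, 2.79 and 2.81 at 24h, and 1.84 and 1.88 at 48h. The libraries of 12h, 24h and 48h lay below both 0h libraries, and the pairs at 24h and at 48h were close together. Its mean at 48h was 33.7% of that at 0h (log2 difference -1.18, SE 0.14, adjusted p = 0.00135). Together with Lef1 it was past the threshold already at 24h (-0.77, SE 0.14, adjusted p = 0.0246). At levels this low the added 1 FPKM makes the fold change smaller than that of the FPKM themselves.

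Ovol1 and Prdm1, zinc finger repressors that are also active in the epidermis, had the smallest log2 fold changes of the 10 at 48h. Ovol1 (chr19:5549136-5560646, minus strand) had 70.0 and 71.4 FPKM at 0h, 78.9 and 74.7 at 6h, 84.8 and 72.5 at 12h, 77.4 and 72.1 at 24h, and 54.9 and 48.2 at 48h. All libraries from 6h to 24h lay above both 0h libraries, and both 48h libraries below them. Its change at 48h passed (log2 fold change -0.45, SE 0.12, adjusted p = 0.0466) but in only 2 of the 10 fits without a library. The opposite-strand pseudogene Gm31166 shares 19.8% of its exon bases, with the same limit as for Lef1.

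Prdm1 (chr10:44437177-44528501, minus strand), also known as Blimp1, had 9.65 and 11.9 FPKM at 0h, 11.1 and 13.2 at 6h, 13.4 and 14.7 at 12h, 12.7 and 13.6 at 24h, and 10.4 and 10.1 at 48h. Its libraries lay above both 0h libraries at 12h and 24h and within their range at 48h. The log2 fold change was 0.36 (SE 0.14, adjusted p = 0.24) at 12h, 0.27 (SE 0.14, adjusted p = 0.292) at 24h and -0.06 (SE 0.14, adjusted p = 0.835) at 48h, with a 95% interval of -0.36 to 0.25 for the last.

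Seen by time, calls among the 10 factors began at 24h. At 6h against 0h 0 of them passed in limma (0.044% of tested genes did), and 0 had an unadjusted p under 0.05. At 12h against 0h 0 passed (1.08% of tested genes did). An unadjusted p under 0.05 was found for 3, namely Msx1 on the lower side and Foxn1 and Prdm1 on the higher. Over all 13625 tested genes, 1671 had such a p at 6h and 2150 at 12h, in either direction. At 24h against 0h Lef1 and Trps1 passed, where 1.94% of tested genes were lower, 1.37% were higher and 3.32% changed in either direction, and the median log2 fold change was -0.50, beside -0.10 for all tested genes. The balance over all genes at 24h turned with the scaling: 265 lower and 187 higher as deposited, 133 and 194 with hair genes left out, 162 and 307 with median-of-ratios scaling, and 190 and 272 with quantile normalization. In 6 of the 10 both 24h libraries lay below both 0h libraries, as in 37.2% of tested genes. Neither passed at 24h without 0h library 2, 0h library 3 or 24h library 3. Trps1 also lost that call without 24h library 2, without the filter on low values (adjusted p = 0.0574), with only the 2 times in the fit and with hair genes left out.

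From step to step, 0 factors passed at 12h against 6h (0% of tested genes, 1 factor with an unadjusted p under 0.05). At 24h against 12h 0 passed (0.022% of tested genes, 6 factors with an unadjusted p under 0.05). Over all 13625 tested genes, 1556 had such a p in the first of these steps and 1349 in the second. All 10 factors had a negative log2 fold change at 24h against 12h, with a median of -0.48 beside -0.02 for all tested genes. In the F test over the 4 comparisons with 0h, 7 of the 10 passed, as did 7.35% of tested genes; Gata3 (adjusted p = 0.0564), Msx1 (adjusted p = 0.0612) and Prdm1 (adjusted p = 0.185) did not. That number was 2 without 48h library 3 and 4 without 0h library 2, 0h library 3, 12h library 2 or 12h library 3, and also 4 without the filter on low values.

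**Figure D2:**
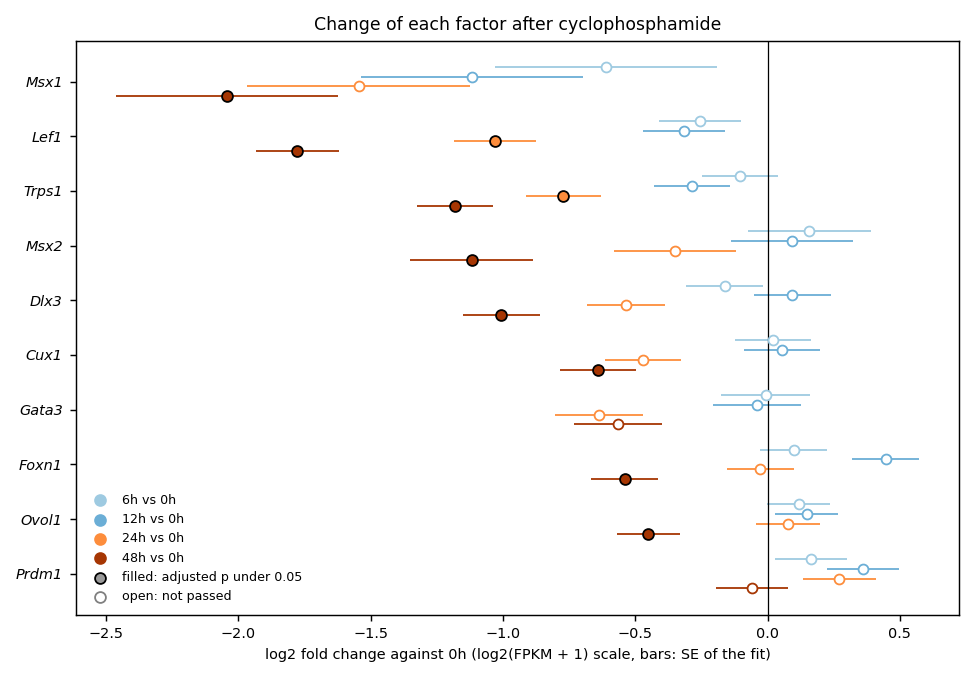
Log2 fold change of each factor at 6h, 12h, 24h and 48h against 0h on the log2(FPKM + 1) scale, with bars for the SE of the limma fit; filled points passed an adjusted p of 0.05. At 48h 8 of the 10 points are filled and lie between -2.04 and -0.45, and at 24h only those of Lef1 and Trps1 are.

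Ratios of 2 factors within a library are left unchanged by any scaling with 1 number per library. Quantile normalization is not such a scaling and can change them. Foxn1 per Lef1 was 2.003 and 2.16 in the 48h libraries, against 0.767 and 0.853 in the 0h libraries, with 1.57 and 1.83 at 24h. Prdm1 per Lef1 was 1.61 and 1.83 at 48h, against 0.411 and 0.534 at 0h. The 0h and 48h libraries did not overlap for either ratio.

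Msx1 per Msx2 was 0.134 and 0.0988 at 48h, against 0.246 and 0.270 at 0h, and was already 0.105 and 0.104 at 12h. Lef1 per Trps1 was 3.51 and 2.92 at 48h, against 4.75 and 3.65 at 0h, and the ranges nearly met. Ovol1 per Dlx3 was 0.933 and 0.996 at 48h, against 0.640 and 0.666 at 0h. With 2 libraries against 2, an exact permutation test cannot give a p below 0.333, so these ratios are given as values with no test.

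**Figure D3:**
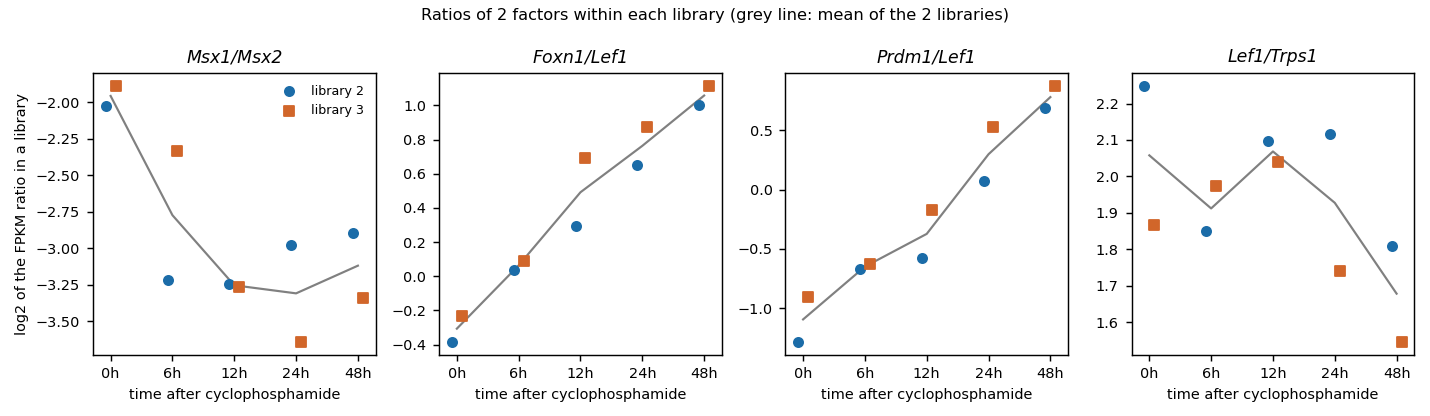
Log2 of the ratio of 2 factors' FPKM within each library at 5 times; circles and squares are library 2 and library 3 and the grey line joins their means. Foxn1 per Lef1 and Prdm1 per Lef1 are higher at 48h than in either 0h library, and Msx1 per Msx2 is below both 0h libraries at every later time.

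At the later times the 2 libraries of a time also differed for the group as a whole. Library 3 was below library 2 for 9 of the 10 factors at 48h and for 8 of the 10 at 24h, where 43.7% and 40.8% of tested genes were. At 12h it was below for 8 of the 10, with 63.3% of tested genes, and at 6h and 0h for 3 and 4 of the 10, with 37.8% and 37.9%. The summed FPKM of 7 hair shaft cortex marker genes was likewise lower in library 3 at the last 2 times, 8161 against 9249 at 48h and 9126 against 11494 at 24h. That sum was higher in library 3 at 12h (10660 against 10125), at 6h (9278 against 8181) and at 0h (8207 against 8035). The part of these library differences in the changes of the factors was not tested.

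Across the 10 libraries, Pearson correlations of log2(FPKM + 1) between pairs of the 10 factors were between 0.04, for Gata3 with Prdm1, and 0.97, for Lef1 with Trps1. Of the 45 pairs 24 were above 0.8, and without Prdm1 the lowest was 0.52. The points share their times and libraries, so these values are descriptions. Among 12862 other genes the most similar pattern to that of Lef1 was Kctd6 (r = 0.99, n = 10), whose mean was 7.63 FPKM at 48h, against 19.7 FPKM at 0h. The nearest gene was Pcgf6 for Trps1 (r = 0.98), Pcdh7 for Msx2 (r = 0.98), Bean1 for Ovol1 (r = 0.99), St14 for Dlx3 (r = 0.98) and Tle3, a co-repressor of the Groucho family, for Cux1 (r = 0.97). For Gata3 it was Cyfip2 (r = 0.97), for Foxn1 Nfil3 (r = 0.96), for Prdm1 Slc30a4 (r = 0.96) and for Msx1 Lgals12 (r = 0.95).

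A list of 40 other tested regulators covers the matrix and precortex but also holds factors of other follicle layers, such as Sox9. Of these 40, 7 fell (17.5%) and 1 rose (2.5%) at 48h, beside 4.12% lower and 4.8% higher over all tested genes. The median log2 fold change of the 40 was -0.18, beside -0.01 over all tested genes. Among the 40, the largest changes were those of Foxe1 (-1.96, SE 0.41, adjusted p = 0.0182), Sox21 (-1.61, SE 0.15, adjusted p = 0.000362), Hoxc13 (-0.99, SE 0.17, adjusted p = 0.00679), a homeobox activator of hair keratins, and Dlx2. The 1 rise was that of Sox9, a factor of the outer root sheath and stem cells, named here because it stood alone (0.50, SE 0.12, adjusted p = 0.0289). Lef1 per Hoxc13 was 0.140 and 0.144 at 48h, against 0.305 and 0.241 at 0h. The other DNA-binding partners of beta-catenin did not pass at 48h: Tcf7 had a log2 fold change of -0.29 (adjusted p = 0.425), Tcf7l1 of -0.11 (adjusted p = 0.754) and Tcf7l2 of -0.09 (adjusted p = 0.752). At 24h 1 of the 40, Sox21, fell (-1.24, SE 0.15, adjusted p = 0.00501), which is 2.5% of the list beside 1.94% of all tested genes, and the median was -0.31.

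Of 13 tested feedback targets of beta-catenin and Lef1, 5 fell (38.5%) and 0 rose at 48h, beside 4.12% lower and 4.8% higher over all tested genes. Their median log2 fold change was -0.33, beside -0.01 over all tested genes. The falls were led by Nkd2 (-1.62, adjusted p = 0.000921), Wif1 (-1.39, adjusted p = 0.0105), Bambi (-1.20, adjusted p = 0.00554) and Notum (-0.76, adjusted p = 0.0393). Axin2, the most used readout of the pathway, had a log2 fold change of -0.08 (SE 0.15, adjusted p = 0.787). At 24h 0 of the 13 passed in limma, 5 had an unadjusted p under 0.05, all on the lower side, and the median was -0.30. Over all 13625 tested genes, 2800 had such a p at 24h, in either direction. Of 33 tested signals of the matrix and precortex, 11 fell (33.3%) and 0 rose at 48h (median -0.26). Among them were Wnt10b, a Wnt ligand of the matrix (-1.91, adjusted p = 0.00124), Shh (-1.31, adjusted p = 0.00856) and Wnt11 (-1.24, adjusted p = 0.00481). At 24h 5 fell (15.2%) and 0 rose, beside 1.94% lower and 1.37% higher over all tested genes. Among the 5 were Shh (-1.41, adjusted p = 0.0158), its receptor Ptch1 (-0.93, adjusted p = 0.0471), and the Notch ligand Jag1 (-0.76, adjusted p = 0.0209).

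At 48h the lists of precortex and inner root sheath products held calls in both directions. Of 23 tested hair shaft keratins and cortex proteins, 5 fell (21.7%) and 3 rose (13.0%) at 48h, beside 4.12% lower and 4.8% higher over all tested genes. Their median log2 fold change was -0.15, beside -0.01 over all tested genes. Selenbp1 fell most (-3.24, adjusted p = 4.1e-06), followed by Krt35 (-1.83, adjusted p = 0.000236), Padi3 (-1.22, adjusted p = 0.00375) and Krt36 (-0.83, adjusted p = 0.00471), and Krt85 also fell (-0.65, adjusted p = 0.0236). The 3 that rose were the shaft keratins Krt34 (0.66, adjusted p = 0.0293) and Krt86 (0.63, adjusted p = 0.0449), and Dsc2 (0.61, adjusted p = 0.048). At 24h the list's median was 0.24, with Selenbp1 (-1.30, adjusted p = 0.00235) and Krt35 (-0.70, adjusted p = 0.0318) lower (8.70%, beside 1.94% of all tested genes) and 0 higher. Of 16 inner root sheath genes, 6 fell (37.5%) and 2 rose (12.5%) at 48h (median -0.23). The falls were led by the keratins Krt74 (-2.48, adjusted p = 0.000168), Krt73 (-1.36, adjusted p = 0.00108), Krt25 (-1.004, adjusted p = 0.00598) and Krt28 (-0.85, adjusted p = 0.011). Krt71 (-0.61, adjusted p = 0.0478) and Tchh (-0.58, adjusted p = 0.0313) also fell. The 2 that rose were Cdsn (0.68, adjusted p = 0.0187) and Padi1 (0.53, adjusted p = 0.0147), and no keratin of this list passed on the higher side. In which cells of whole skin these 2 rose was not tested. Of the 6 inner root sheath markers summed below, 5 passed on the lower side at 48h and 0 on the higher. At 24h 2 of the 16 rose (12.5%, beside 1.37% of all tested genes), Padi1 (0.77, adjusted p = 0.00779) and Krt26 (0.56, adjusted p = 0.0431), and the median was 0.43.

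Of 20 cell division genes tested, 0 passed at 6h in limma, but 12 had an unadjusted p under 0.05, all on the lower side, and the median log2 fold change was -0.59. At 12h 1 passed, Ccnb2, named because it stood alone (-1.34, SE 0.25, adjusted p = 0.0403), where 1.08% of all tested genes passed. All 20 had an unadjusted p under 0.05 on the lower side at 12h, and the median was -0.88. At 24h Plk1 (-1.23, adjusted p = 0.0349) and Mki67 (-1.16, adjusted p = 0.0228) fell, 2 of the 20 (10%, beside 1.94% of all tested genes). At that time 18 had an unadjusted p under 0.05 on the lower side, and the median was -0.74. At 48h 0 of the 20 passed in limma, 0 had an unadjusted p under 0.05, and the median was 0.13, when the median of the 10 factors was -0.82. Over all 13625 tested genes, an unadjusted p under 0.05 in either direction was found for 1671 at 6h and 2150 at 12h. It was found for 2800 at 24h and 3382 at 48h.

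**Figure D4:**
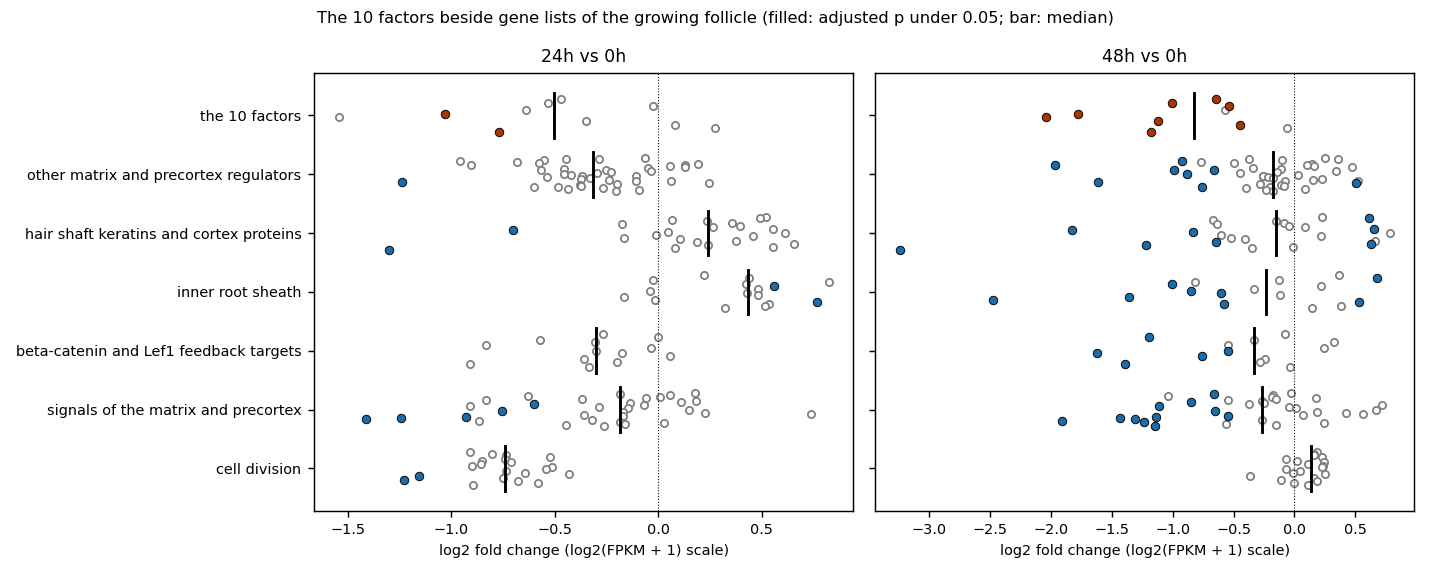
Log2 fold change of each tested gene at 24h against 0h (left) and at 48h against 0h (right) on the log2(FPKM + 1) scale, for the 10 factors and 6 lists; filled points passed an adjusted p of 0.05 and the black bar is the median. At 48h the median of the 10 factors is -0.82 and those of the lists lie between -0.33 and 0.13. The list of other regulators also holds factors of other follicle layers.

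Markers of other cell types also moved at 48h, when 4.12% of all tested genes were lower and 4.8% higher. Epidermal keratinocyte markers summed to 13559 and 14690 FPKM at 48h, against 8696 and 7195 FPKM at 0h, and 4 of the 7 tested (8 listed, Flg not among the table's symbols) rose. Among those that rose were Krt14, with means of 2359 FPKM at 0h and 5304 at 48h, Krt1 and Krt10. Krt15 (log2 fold change 0.51, adjusted p = 0.228) and Ivl (0.04, adjusted p = 0.9) did not pass. Which layers of the skin or follicle the rises came from was not tested. Sebocyte markers summed to between 240 and 251 FPKM at 48h, against 159 to 162 at 0h, and 4 of 7 rose. Inner root sheath markers summed to 13347 to 15778 FPKM at 48h, against 22910 to 23174 at 0h, with 5 of 6 lower. Hair shaft cortex markers summed to 8161 to 9249 FPKM at 48h, against 8035 to 8207 at 0h, with 2 of 7 higher and 2 lower. Skeletal muscle markers summed to 2580 to 2996 FPKM at 48h, against 5027 to 5979 at 0h, with 4 of 5 lower. The muscle sum was already 2514 to 3481 FPKM at 6h. Melanocyte markers summed to 791 and 828 FPKM at 48h, against 636 and 606 FPKM at 0h, with 2 of 5 higher, and endothelial markers to 35.2 and 37.4 FPKM at 48h, against 21.9 and 28.7 FPKM at 0h, with 1 of 3 higher. Of 6 dermal fibroblast and 4 adipocyte markers 0 passed in limma at 48h (0 of either list with an unadjusted p under 0.05). The part of these shifts in the changes of the 10 factors was not tested.

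T cells also make Lef1 and Gata3, and 9 of 11 listed T cell markers are among the table's symbols. Of the 6 tested, 0 passed in limma at 24h or at 48h (0 and 2 with an unadjusted p under 0.05). The listed markers summed to 108 to 112 FPKM at 48h, against 79.0 to 87.9 at 0h. Thy1 made up most of that sum, with means of 62.7 FPKM at 0h and 84.4 at 48h. The means at 0h and 48h were 9.08 and 9.73 FPKM for Cd3g and 1.92 and 3.61 for Cd3e. They were 1.65 and 2.56 for Cd3d, and 1.68 and 2.82 for Cd247. Cd4, Cd8a and Il7r were below the filter. Plasma and B cells make Prdm1, and Jchain and Ms4a1, markers that define them, were below the filter. The macrophage, plasma and B cell list summed to 319 to 350 FPKM at 48h, against 216 to 253 at 0h, with 1 of 5 tested genes higher. That gene was Sdc1, which also made up most of the sum. The macrophage markers did not pass at 48h. Their means at 0h and 48h were 3.24 and 2.28 FPKM for Adgre1, 12.4 and 9.67 for Csf1r, 20.7 and 32.8 for Cd68, and 2.37 and 3.40 for Cd163. Of 6 tested dermal papilla markers 1 rose at 48h, with sums of 125 to 146 FPKM, against 78.6 to 90.9 at 0h. That marker was Crabp1 (adjusted p = 0.00375 in limma), with means of 35.5 FPKM at 0h and 76.6 at 48h, and it made up most of the sum at 48h. The 10 factors themselves summed to 263 and 206 FPKM at 48h, against 416 and 431 FPKM at 0h.

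**Figure D5:**
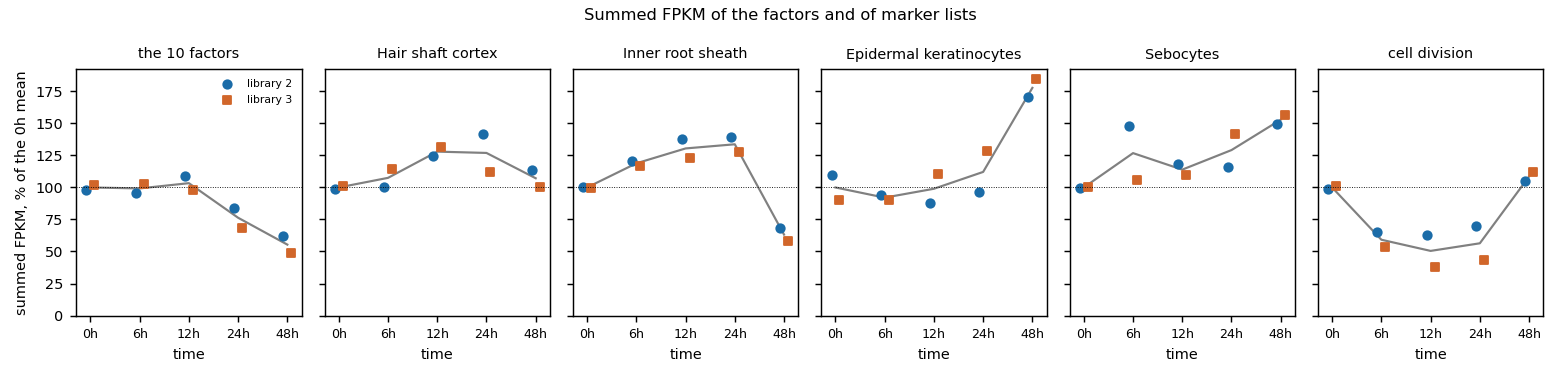
Summed FPKM of the 10 factors, of 4 marker lists and of 20 cell division genes in each library, as percent of the 0h mean; circles and squares are library 2 and library 3 and the grey line joins their means. The factors and the inner root sheath markers are below 70% of the 0h mean at 48h, and the epidermal and sebocyte markers are above 140% of it.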

How the data were processed

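RNA-seq of 10 mouse back skin libraries was used. The values are FPKM as the authors deposited them in 1 gene table; the unit was read from the values and from the use of Cufflinks, since the header names none. TopHat2 2.1.1, Cufflinks 2.2.1 and build mm10 are named, per the submitters' processing notes; for annotation, strand setting and scaling the steps are not stated there. Of 24358 rows, 27 whose symbols had become dates were left out, and 103 name several genes. Columns carry numbers 2 and 3 where the labels carry 1 and 2, so columns were matched to times only and libraries are called by the column's number.

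A gene entered the test when 2 or more libraries had 1 FPKM or more. The test was limma 3.58.1 (R 4.3.3) on log2(FPKM + 1), with 1 mean per time, and an intensity trend. The residual degrees of freedom were 5 and the prior's median was 4.92. The fit was checked on simulated data. Similar patterns were ranked by Pearson's r. Coordinates and overlaps are from GENCODE M21 (GRCm38), promoter windows from RefSeq. Named genes are the 10 factors, up to 4 genes past the threshold with the largest change per list at 24h and 48h, the nearest gene to each factor, and Hoxc13, Krt35, Krt85, Mki67, Shh, Wnt10b and Axin2. Relatives of the factors, Sox9, Ccnb2, Cdsn, Dsc2, Krt34, Krt71, Krt86, Tchh and the named cell type markers were added outside this rule, after their values were seen. Some genes that met the rule are not reported here. The factors and lists were chosen with earlier results of these data known. Alternatives were a pseudocount of 0.1, 2 other filters, 2 other scalings, hair genes left out, a replicate block, only the 2 times compared, and each library left out.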

Additional observations from a re-analysis of the deposited data

How the results depend on the processing

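No result with a call changed sign under any alternative tried. Lef1, Dlx3 and Trps1 at 48h against 0h passed in every alternative they entered, including all 10 fits that left out a library; where a mean of at least 5 FPKM was required, Trps1 was not tested. Of the 8 calls at 48h, 5 were left with hair genes left out and 3 to 8 without a single library; over the other alternatives 6 to 9 factors passed, 7 with median-of-ratios scaling and 9 with the replicate block. Of the 2 calls at 24h against 0h, 1 was left without the filter, with a mean of at least 5 FPKM, with hair genes left out and with only the 2 times compared, and 0 to 3 factors passed without a single library. At 12h against 0h 1 factor passed with only the 2 times compared. At 48h against 24h, where 1 passed, 0 did without the filter, with hair genes left out or with only the 2 times compared, 2 with a mean of at least 5 FPKM, 3 with median-of-ratios scaling, 3 with quantile normalization and 0 to 1 without a single library. In the F test, 4 passed in place of 7 without the filter, 2 to 7 without a single library, 5 with hair genes left out and 8 with the replicate block. The cause of these shifts was not tested. Same-numbered libraries deviated together with r of -0.10 to 0.22 over 10 pairs of times, 5 of them over 0.1, so the numbers were not taken to pair them; with the replicate block 4 factors passed at 24h against 0h, Gata3 (adjusted p = 0.0279) and Dlx3 (adjusted p = 0.0436) being gained, 2 passed at 48h against 24h, and Gata3 was gained at 48h against 0h (adjusted p = 0.0242). Other scalings moved the median of all genes by less than 0.1. With 2 libraries a time and unknown depth, differences that missed the threshold are not shown to be absent.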
